A study of Epimedium pubescens with 12 samples.

Results

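Leaves of Epimedium pubescens seedlings that received no phosphorus for 90 days (90d -P) were set against leaves that received none for 30 days (30d -P), over all genes of the deposited count table. The 6 libraries were the columns labelled for these groups, 3 biological replicates (A, B and C) each, out of the 12 libraries of the series. The remaining 6 came from plants given 1 mmol/L phosphate for the same times (90d +P and 30d +P), and they entered the shared estimate of the spread and 1 comparison at the end. One-year-old seedlings, with no transgene or mutation named in the labels, grew in sand in a growth chamber on nutrient solution with 0 or 1 mmol/L phosphate, and the leaves were taken at 90 days, when damage was evident, and at 30 days, when it was not. The plants sampled at 90 days had also been in culture longer than those at 30 days, and the age of the sampled leaves is not given. A longer time without phosphorus and a longer time in culture therefore cannot be told apart within this pair.

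Epimedium is a perennial herb whose leaves hold prenylated flavonol glycosides such as icariin. A leaf that still expands loosens and extends its cell walls with expansins and xyloglucan endotransglucosylases, builds cellulose along cortical microtubules, carries pectin and hemicellulose to the surface in vesicles, and covers the epidermis with cutin and wax. Phosphate is taken up by PHT1 transporters and moved on by PHO1 exporters, SPX proteins report the phosphate state of the cell, and purple acid phosphatases release phosphate from organic esters. Protein names below are those of the closest Swiss-Prot entry in the deposited annotation, most of them from Arabidopsis, and the roles given are those known from Arabidopsis and other plants rather than from Epimedium.

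The 6 libraries held between 14756971 and 16654942 counts on genes. Replicate A of 30d -P stood apart: its Spearman correlation with replicate C of its own group was 0.884, below the 0.904 between replicate C of 30d -P and replicate C of 90d -P, whereas replicates A and B of 30d -P reached 0.931. The 3 libraries of 90d -P correlated at 0.899 to 0.904 with each other. Leaf mesophyll genes, 57 of the photosystems and RuBisCO, summed to 51800, 26400 and 49100 CPM (a gene's count relative to the library total after scaling by the trimmed mean of M values) in 90d -P leaves against 50800, 48400 and 59700 CPM in 30d -P leaves, so the labelled tissue was present in every library and replicate B of 90d -P held the lowest share. In bulk leaves, fewer cells of a type and less RNA per cell cannot be told apart.

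The first question was which genes differed between the 2 times without phosphorus. Of 53813 genes listed, 24307 had enough counts to be tested. edgeR's quasi-likelihood test, with a limit of 0.05 on the p-value adjusted by Benjamini and Hochberg and a log2 fold change of 1 or more in either direction, called 1356 genes (5.58%). Of these, 396 (1.63%) lay higher in 90d -P leaves and 960 (3.95%) lay lower, relative to 30d -P leaves. The median log2 fold change over all tested genes was 0.03, a value that the scaling sets near 0. The 3 libraries of each group did not overlap for 393 of the 396 higher genes and 956 of the 960 lower genes, where 15.3% and 18.0% of all tested genes were apart in those directions. Large changes were frequent: 107 higher and 356 lower genes differed by at least 3 on the log2 scale. The higher genes took 4.68%, 6.1% and 4.66% of all reads in 90d -P leaves against 1.06%, 1.37% and 1.5% in 30d -P leaves. The lower genes took 2.73%, 2.1% and 1.72% of the reads in 90d -P leaves against 11.4%, 9.66% and 7.33% in 30d -P leaves. Both sums are over genes called on these same libraries, so that they describe the called genes and are no further test.

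The number of called genes depended on single libraries. In 12 fits that each left out 1 library, the counts fell to 22 higher and 35 lower without replicate B of 90d -P, to 114 and 117 without its replicate C, and to 219 and 602 without its replicate A. They fell to 40 and 128 without replicate A of 30d -P, to 15 and 40 without its replicate B, and were 362 and 1033 without its replicate C. Leaving out a +P library, which alters the shared spread and also the genes that reach the filter and the adjustment, gave between 206 and 459 higher and between 422 and 1143 lower genes. Of the called genes, 13 of the higher and 24 of the lower genes passed in all 12 fits, and those among them that are described below are marked as such.

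**Figure D1:**
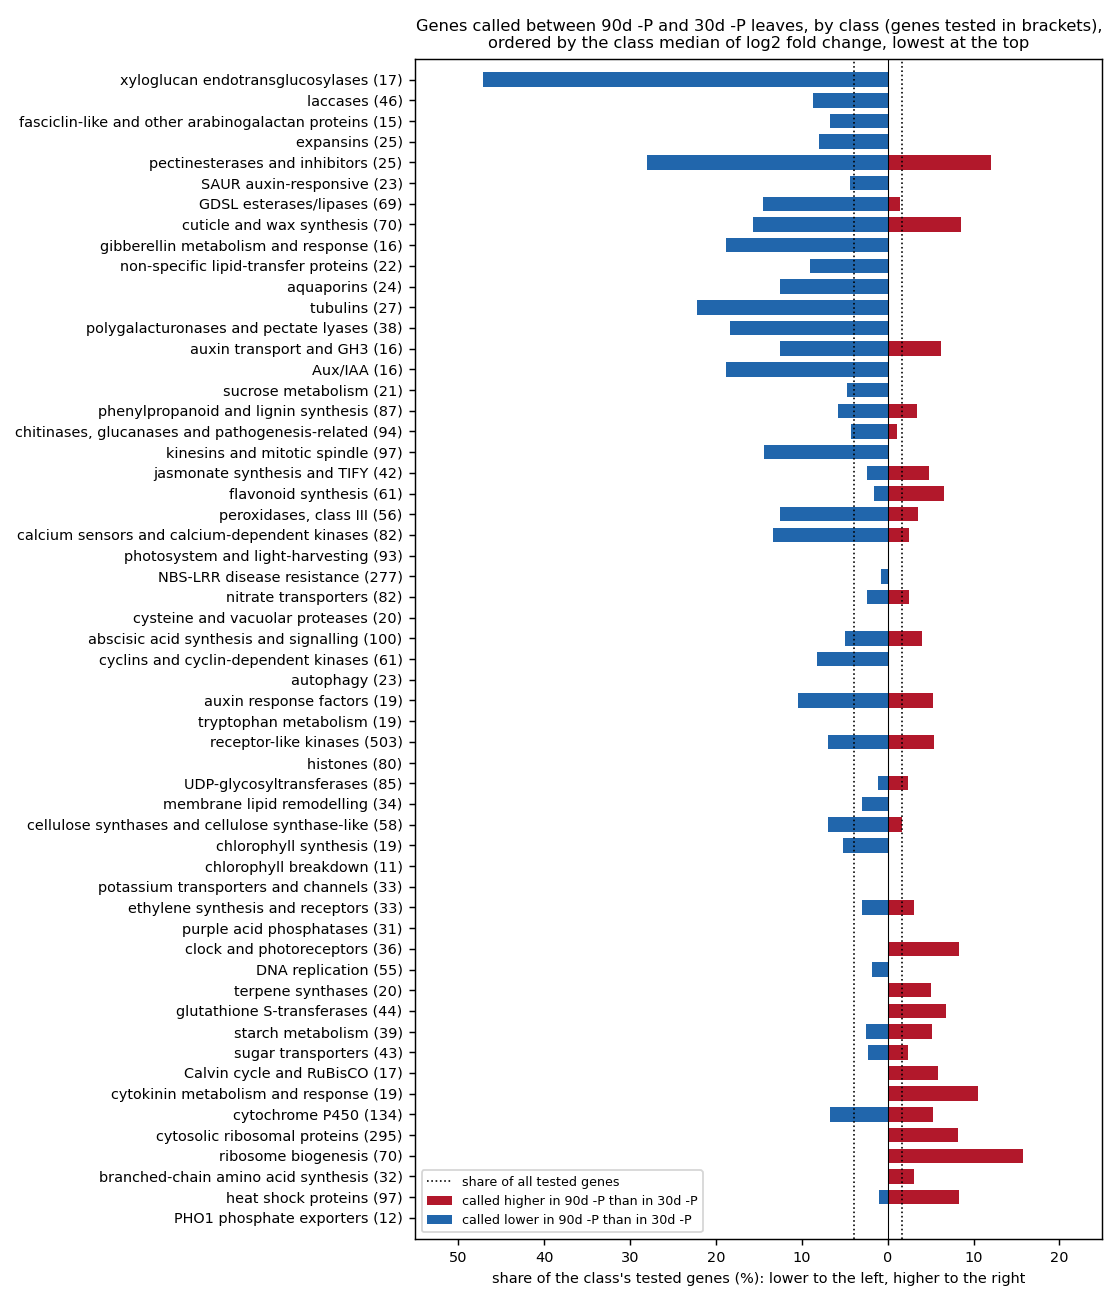
Percentage of tested genes called lower (bars to the left) and higher (bars to the right) in 90d -P than in 30d -P leaves for the 56 functional classes with at least 10 tested genes, ordered by the median log2 fold change of the class with the lowest at the top. The dotted lines are the shares over all 24307 tested genes, 3.95% lower and 1.63% higher, and xyloglucan endotransglucosylases stand at the top with 47.1% lower.

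The genes with the largest increases were nearly silent at 30 days. PER52 (Ebr06G041950, chromosome 6, 332998219 to 333002836), a class III peroxidase that oxidises phenolics in the wall, had 201, 142 and 149 CPM in 90d -P leaves against no read in any 30d -P library, at least 817-fold higher against a floor of 3 counts per library (adjusted p = 0.0165). COMT1 (Ebr05G033700, chromosome 5, 254555869 to 254562482), named after caffeic acid O-methyltransferase of lignin synthesis, had 221, 85.1 and 252 CPM in 90d -P leaves against 0.144, 0 and 0 CPM in 30d -P leaves (log2 fold change 11.79 ± 1.37 SE, adjusted p = 0.00707, called in all 12 fits). Its neighbour in the gene order, a second COMT1 (Ebr05G033710), had 55.3, 81.4 and 59.9 CPM against no read, at least 326-fold higher. Both copies were therefore on at 90 days and off at 30 days in every library, although reads of such similar neighbours may have been split between them.

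HHT1 (Ebr04G018650), which links ferulate to omega-hydroxy fatty acids in suberin and cutin, had 74.8, 42.7 and 16.9 CPM in 90d -P leaves against 0, 0 and 0.0638 CPM in 30d -P leaves (10.54 ± 1.4 SE, adjusted p = 0.0114). HPT1 (Ebr01G001570), whose Swiss-Prot namesake attaches the phytyl tail in vitamin E synthesis, had 45.9, 156 and 234 CPM against no read, at least 723-fold higher (adjusted p = 0.017). ADS3 (Ebr04G002560), a fatty acid desaturase, had 1540, 1290 and 1130 CPM against 0, 3.53 and 1.08 CPM (9.73 ± 2.07 SE, adjusted p = 0.0299). These 6 genes were the largest increases among genes averaging at least 5 CPM in 1 group.

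The 6 largest decreases had the opposite form, and their levels at 30 days varied widely among libraries. Ebr05G011990 (chromosome 5, 78401120 to 78402535), named PRF1 after a proline-rich protein, had 0, 0.0609 and 0 CPM in 90d -P leaves against 2320, 418 and 9.44 CPM in 30d -P leaves (log2 fold change -14.98 ± 3.56 SE, adjusted p = 0.0389). PHI1 (Ebr03G051010), named after a phosphate-induced protein of the EXORDIUM family, had 0.182, 0.0609 and 0 CPM against 645, 245 and 9.82 CPM (-11.72 ± 2.27 SE, adjusted p = 0.0245). Replicate A of 30d -P held most of the reads of both genes and replicate C few, yet replicate C stayed above every 90d -P library.

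No read was found in any 90d -P library for the other 4 largest decreases. GLOX1 (Ebr04G072630), a galactose oxidase-like enzyme, had 123, 22.2 and 5.04 CPM in 30d -P leaves and was at least 274-fold lower in 90d -P leaves (adjusted p = 0.0246). The P450 named C96T1 (Ebr04G047180) had 69.2, 23.3 and 4.02 CPM in 30d -P leaves and was at least 176-fold lower. EXL3 (Ebr04G060570), a GDSL lipase, had 57.2, 17.3 and 2.17 CPM in 30d -P leaves and was at least 139-fold lower. GASA1, a gibberellin-regulated small peptide encoded here by an assembled gene without a reference ID, had 35.7, 13.7 and 8.61 CPM in 30d -P leaves and was at least 105-fold lower (adjusted p = 0.0182). The order of replicates A, B and C was the same in these genes as over the lower genes at large. Replicate C of 30d -P was the lowest of its group for 73.4% of the 960 lower genes, beside 34.2% of all tested genes. Replicate A was the highest for 64.6% of them, beside 38.4% of all tested genes.

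Wall-loosening enzymes were the class with the largest share of lower genes among the 56 classes with at least 10 tested genes. Xyloglucan endotransglucosylases cut and rejoin the xyloglucan that ties cellulose microfibrils together. Of 43 such genes 17 were tested, and 8 (47.1%) were lower and none higher, with a class median log2 fold change of -6.61 against 0.03 over all genes. XTH33 (Ebr03G057880, chromosome 3, 473629936 to 473631378) had 0.425, 1.7 and 0.185 CPM in 90d -P leaves against 322, 104 and 97.7 CPM in 30d -P leaves (-7.80 ± 1.15 SE, adjusted p = 0.0135, called in all 12 fits). XTH6 (Ebr04G065890) had 1.09, 0.0609 and 0.493 CPM against 20.6, 27.1 and 29.3 CPM (-5.53 ± 0.777 SE, adjusted p = 0.0129). XTH22 (Ebr04G059750) had no read in 90d -P leaves against 15.6, 19.3 and 1.34 CPM, at least 65.9-fold lower (adjusted p = 0.0387). In 12 of the 17 tested genes (70.6%) every 90d -P library lay below every 30d -P library, beside 18.0% of all tested genes. Without 1 of the 6 -P libraries the class kept between 1 and 2 lower calls, or 9 without replicate C of 30d -P, while its median stayed between -7.41 and -5.64.

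Expansins, which slip wall polymers past each other in acid, had 2 lower and no higher calls among 25 tested of 53 (8.0%, median -2.47). EXLA1 (Ebr01G047740) had 10.4, 2.43 and 1.05 CPM in 90d -P leaves against 375, 229 and 97.5 CPM in 30d -P leaves (-5.66 ± 0.981 SE, adjusted p = 0.0187). EXPA7 (Ebr06G002220) had 3.65, 0.974 and 0.308 CPM against 44.5, 24.2 and 10.9 CPM (-4.01 ± 1.02 SE, adjusted p = 0.0456). The summed class did not separate the groups, at 89, 275 and 304 CPM in 90d -P leaves against 2020, 674 and 255 CPM in 30d -P leaves. The class held no lower call without replicate A or B of 30d -P or without replicate B or C of 90d -P, and 3 without replicate A of 90d -P.

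Laccases and peroxidases polymerise lignin in thickened walls. Of 46 tested laccases (72 listed) 4 were lower (8.7%) and none higher, and the class median was -4.29. Of the 46, 24 (52.2%) were lower in every 90d -P than in every 30d -P library, beside 18.0% of all tested genes. In the higher direction 3 (6.52%) lay apart, beside 15.3% of all tested genes. LAC17 (Ebr06G001600, chromosome 6, 12902321 to 12911570) had 0, 0.0609 and 0 CPM in 90d -P leaves against 3.52, 7.06 and 3.63 CPM in 30d -P leaves (-7.40 ± 1.06 SE, adjusted p = 0.0129). LAC7 (Ebr01G046220) had 0, 0.0609 and 0 CPM against 145, 31.4 and 2.49 CPM (-11.04 ± 2.4 SE, adjusted p = 0.0321). The class as a whole summed to 251, 173 and 78.1 CPM in 90d -P leaves against 4440, 2040 and 1090 CPM in 30d -P leaves, so even the highest 90d -P library lay below the lowest 30d -P library. Lower calls numbered between 0 and 5 with 1 of the 6 libraries left out, 0 of them without replicate B of 30d -P.

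Class III peroxidases moved both ways. Of 56 tested (176 listed) 2 were higher (3.57%) and 7 lower (12.5%). PER17 (Ebr04G039810) had 61.4, 59.5 and 70.4 CPM in 90d -P leaves against 0.431, 7.52 and 9.82 CPM in 30d -P leaves (3.42 ± 0.886 SE, adjusted p = 0.0477), and it passed in only 1 of the 12 left-out fits. PER51 (Ebr05G035510) was lower by -4.37 ± 0.863 SE (adjusted p = 0.0254) and PER41 (Ebr03G029070) by -3.16 ± 0.66 SE (adjusted p = 0.0287). No peroxidase was called lower without replicate A or B of 30d -P or replicate B or C of 90d -P.

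Markers of secondary wall vessels and fibres moved with these classes. The list held 22 genes, among them the secondary wall cellulose synthases and NAC switches of xylem and fibres, and its summed level ran between 24.4 and 349 CPM in 90d -P leaves against 1540 and 2250 CPM in 30d -P leaves. Of the 22, 13 were lower in every 90d -P than in every 30d -P library, 14 were tested and 2 were called lower, and 2 were at 0 in all 6 libraries. Among all 24307 tested genes 18.0% lay apart in that direction, but the 22 also include genes too low to be tested. CESA8 (Ebr03G029130), a secondary wall cellulose synthase, had 148, 50.0 and 14.9 CPM in 90d -P leaves against 488, 1050 and 882 CPM in 30d -P leaves. IRX15 (Ebr04G074190), of xylan synthesis, had 25.3, 18.2 and 1.17 CPM against 99.4, 216 and 199 CPM. FLA11 (Ebr01G052080), an arabinogalactan protein of fibre walls, had 123, 14.4 and 4.93 CPM against 801, 628 and 260 CPM. These 3 were picked as examples after their values were seen. Vein tissue carries such genes, and its part in the lower wall classes was not tested. The +P leaves differed in the same way, with 13.4 to 217 CPM at 90 days against 902 to 1690 CPM at 30 days.

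Cellulose synthases and cellulose synthase-like proteins make the backbones of cellulose and related wall polymers, and 13 of the 22 secondary wall markers above belong to this class. Of 58 tested (78 listed) 1 was higher (1.72%) and 4 lower (6.9%), with a median of 0.07. The class sum was lower in every library, at 3960, 2640 and 2790 CPM in 90d -P leaves against 6650, 7360 and 7260 CPM in 30d -P leaves. No member was called lower without replicate A or B of 30d -P or replicate B or C of 90d -P, and 8 were without replicate A of 90d -P. CSI1 (Ebr05G040760), which guides the cellulose synthase complex along microtubules, had 330, 147 and 208 CPM in 90d -P leaves against 860, 704 and 595 CPM in 30d -P leaves (-1.66 ± 0.396 SE, adjusted p = 0.0392). CSLD2 (Ebr04G003120), a cellulose synthase-like protein of tip-growing cells, had 33.6, 16.1 and 20.4 CPM against 73.4, 105 and 46.3 CPM (-1.68 ± 0.354 SE, adjusted p = 0.0291). CSLE6 (Ebr05G064710) was the higher member, with 23.8, 135 and 122 CPM against 9.04, 19.1 and 20.5 CPM (2.53 ± 0.656 SE, adjusted p = 0.0478).

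Pectin, the gel that cements adjoining cells, is trimmed by pectinesterases, their inhibitors, polygalacturonases and pectate lyases. Among 25 tested pectinesterases and inhibitors (89 listed) 3 were higher (12%) and 7 lower (28.0%). PME3 (Ebr02G028260, chromosome 2, 248347496 to 248350236) had 29.0, 20.4 and 9 CPM in 90d -P leaves against 424, 213 and 195 CPM in 30d -P leaves (-3.83 ± 0.558 SE, adjusted p = 0.0129, called in 11 of 12 fits). An inhibitor, PMEI6 (Ebr01G006010), had 16.5, 31.1 and 16 CPM against 118, 109 and 160 CPM (-2.61 ± 0.539 SE, adjusted p = 0.0278). PME55 (Ebr01G044650) went the other way at low levels, with 0.365, 2.8 and 2.34 CPM against 0, 0 and 0.0638 CPM (5.95 ± 1.27 SE, adjusted p = 0.0356). Enzyme and inhibitor were thus both among the lower genes. Of 38 tested polygalacturonases and pectate lyases (146 listed) 7 were lower (18.4%) and none higher. PGLR (Ebr01G043440) had 53.1, 21.2 and 25.2 CPM against 260, 171 and 123 CPM (-2.48 ± 0.469 SE, adjusted p = 0.0227), and the pectate lyase PLY8 (Ebr03G000610) had no read in 90d -P leaves against 28.1, 12.9 and 1.15 CPM. Neither pectin class held a call without replicate B of 90d -P. Without replicate A or B of 30d -P or C of 90d -P, pectinesterases and inhibitors kept 1 lower call. Polygalacturonases and pectate lyases kept none in those fits. The classes held 2 and 4 lower calls without replicate A of 90d -P, and 7 and 7 without replicate C of 30d -P.

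Of 15 tested arabinogalactan proteins (29 listed) 1 was lower (6.67%, median -2.63). FLA4 (Ebr01G064790), which acts in cell expansion, had 7.96, 3.65 and 9.56 CPM in 90d -P leaves against 60.7, 33.7 and 18.7 CPM in 30d -P leaves (-2.42 ± 0.595 SE, adjusted p = 0.0421).

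**Figure D2:**
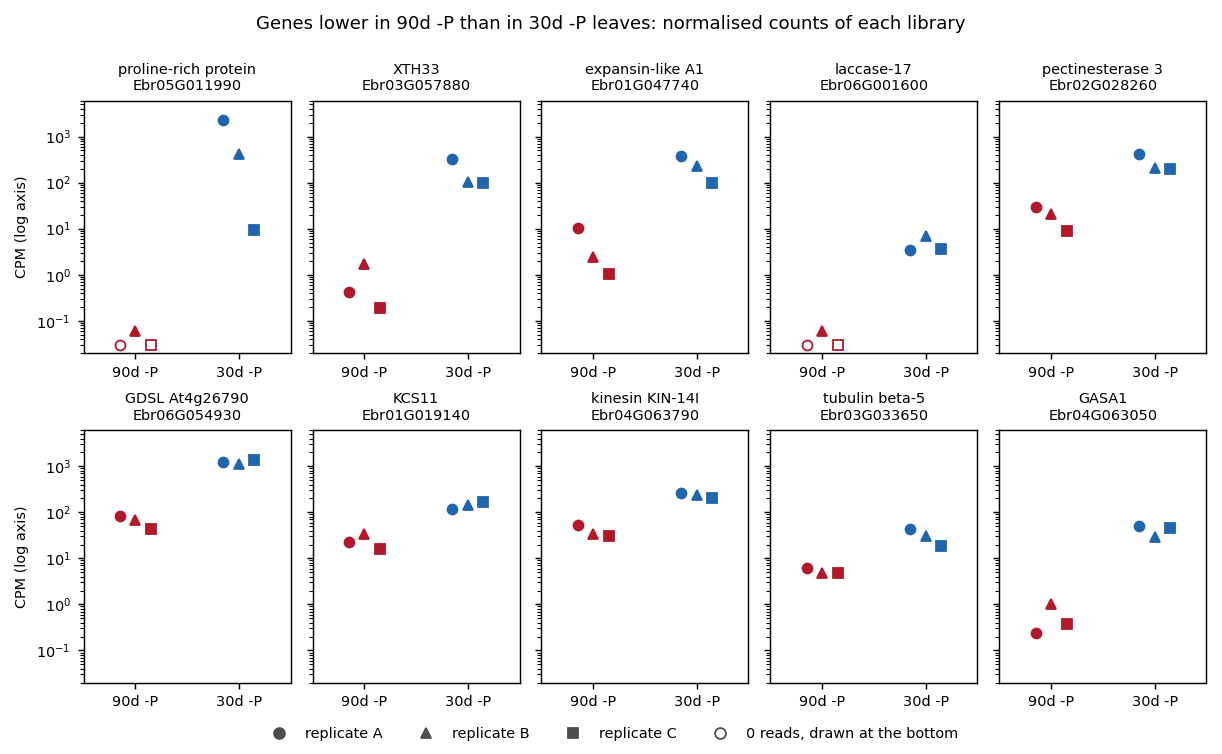
Level of 10 named lower genes in each of the 3 libraries of 90d -P (left) and of 30d -P leaves (right), in CPM on a logarithmic axis. Points are libraries, open symbols at the bottom stand for no read, each 90d -P point lies below each 30d -P point of the same gene, and the levels of Ebr05G011990 at 30 days reach from 9.44 to 2320 CPM.

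Cuticle genes split into a larger lower and a smaller higher set. Of 70 tested genes of cutin and wax synthesis (138 listed) 11 were lower (15.7%) and 6 higher (8.57%). KCS11 (Ebr01G019140, chromosome 1, 171218274 to 171221342), a 3-ketoacyl-CoA synthase that elongates very long chain fatty acids, had 22.4, 34.4 and 16.3 CPM in 90d -P leaves against 116, 142 and 168 CPM in 30d -P leaves (-2.55 ± 0.307 SE, adjusted p = 0.00742, called in all 12 fits). A second KCS11 (Ebr06G044560) had 30.3, 29.0 and 28.8 CPM against 216, 166 and 109 CPM (-2.48 ± 0.332 SE, adjusted p = 0.012). C86A7, a fatty acid omega-hydroxylase of the CYP86A family on another assembled gene, had no read in 90d -P leaves against 8.68, 6.86 and 4.72 CPM, at least 36.8-fold lower (adjusted p = 0.00711, called in all 12 fits).

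Other members of the same enzyme families were higher. KCS9 (Ebr05G042470) had 35.4, 151 and 135 CPM in 90d -P leaves against 0, 0.0654 and 0.638 CPM in 30d -P leaves (8.75 ± 1.14 SE, adjusted p = 0.0107). A gene named CYP86B1 (C86B1, Ebr05G001400), an omega-hydroxylase of very long chain suberin monomers, had 685, 339 and 365 CPM against 0, 2.68 and 1.34 CPM (8.42 ± 1.49 SE, adjusted p = 0.0193). Another gene of that name (Ebr04G059980) had 3.83, 3.29 and 3.89 CPM against 49.7, 38.2 and 36.5 CPM (-3.50 ± 0.594 SE, adjusted p = 0.0181). The CYP86B1 copies thus lay on opposite sides, and the class counts without 1 of the 6 libraries ran from 0 to 5 higher and from 2 to 11 lower.

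GDSL lipases, several of which polymerise cutin, had 10 lower (14.5%) and 1 higher (1.45%) among 69 tested of 166. GDL66 (Ebr06G054930) had 82.7, 68.0 and 43.2 CPM in 90d -P leaves against 1210, 1140 and 1350 CPM in 30d -P leaves (-4.26 ± 0.646 SE, adjusted p = 0.015). GDL83 (Ebr06G043090) had 27, 18.9 and 10.6 CPM against 671, 490 and 567 CPM (-4.93 ± 0.686 SE, adjusted p = 0.0129). Of 22 tested lipid-transfer proteins (56 listed) 2 were lower (9.09%). The gene LTG12 (Ebr06G022180) had 52.8, 39.3 and 21.7 CPM against 753, 391 and 303 CPM (-3.67 ± 0.749 SE, adjusted p = 0.027). The GDSL class kept between 0 and 4 lower calls without 1 of the 6 libraries, or 10 without replicate C of 30d -P.

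The microtubule machinery was lower in part. Of 97 tested genes of kinesins and the spindle (137 listed) 14 were lower (14.4%) and none higher. KN14I (Ebr04G063790, chromosome 4, 496724941 to 496782211), a minus-end directed kinesin, had 54.2, 34.3 and 30.5 CPM in 90d -P leaves against 269, 237 and 201 CPM in 30d -P leaves (-2.57 ± 0.302 SE, adjusted p = 0.00711, called in all 12 fits). TOR1 (Ebr06G028080), which orients cortical microtubules and keeps organ growth straight, had 11.7, 8.22 and 6.72 CPM against 27.4, 53.3 and 39.7 CPM (-2.17 ± 0.30 SE, adjusted p = 0.0128). KN13A (Ebr02G013680) had 28.4, 25.1 and 28.1 CPM against 62.1, 86.3 and 57.5 CPM (-1.33 ± 0.21 SE, adjusted p = 0.0163).

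Of 27 tested tubulins (42 listed) 6 were lower (22.2%). TBB5 (Ebr03G033650), a beta tubulin, had 6.26, 4.81 and 4.75 CPM in 90d -P leaves against 43.6, 30.9 and 18.4 CPM in 30d -P leaves (-2.55 ± 0.34 SE, adjusted p = 0.0114). TBA1 (Ebr05G046170), an alpha tubulin, had 316, 110 and 89.0 CPM against 1170, 1260 and 703 CPM (-2.60 ± 0.583 SE, adjusted p = 0.0339). Tubulins summed to 2500, 1550 and 1490 CPM in 90d -P leaves against 10700, 6500 and 3990 CPM in 30d -P leaves, with no overlap. The fit without replicate B of 90d -P called 1 kinesin and no tubulin lower, and that without replicate C of 30d -P called 16 and 6.

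In the cell cycle proper, histones and DNA replication genes gave few calls. None of 80 tested histones passed by edgeR (4 lower and none higher at the unadjusted p, 3 lower and none higher by DESeq2 on the 6 libraries alone). Of 55 tested DNA replication genes 1 was lower (1.82%). Of 61 tested cyclins, kinases and their inhibitors 5 were lower (8.2%) and none higher, beside 3.95% lower of all tested genes. This last class held no lower call without replicate A or B of 30d -P or replicate B or C of 90d -P. It held 2 without replicate A of 90d -P and 4 without replicate C of 30d -P. The replication gene was PSF3 (Ebr04G057090), a subunit of the GINS complex, with 0.912, 0.73 and 0.74 CPM in 90d -P leaves against 25.3, 18.2 and 11.8 CPM in 30d -P leaves (-4.53 ± 0.431 SE, adjusted p = 0.00282, called in all 12 fits). Among the lower cell cycle genes were inhibitors of division: SMR3 (Ebr01G064860) had 6.14, 2.43 and 1.36 CPM against 69.2, 29.5 and 21.8 CPM (-3.60 ± 0.82 SE, adjusted p = 0.0353), and KRP6 (Ebr04G050280) had 19.0, 32.0 and 24.9 CPM against 69.6, 65.7 and 78.7 CPM (-1.5 ± 0.317 SE, adjusted p = 0.0297).

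A pair of further classes was put together after the values had been seen and lends the wall genes no separate support. Of 177 tested genes that make or modify wall polysaccharides (294 listed) 49 were lower (27.7%) and none higher, and of 132 tested genes of vesicle traffic to the plasma membrane (238 listed) 27 were lower (20.5%) and none higher. RAA1F (Ebr03G061720, chromosome 3, 504531318 to 504550532), a Rab GTPase of secretory vesicles, had 2.73, 2.8 and 2.78 CPM in 90d -P leaves against 25.3, 16.3 and 16.9 CPM in 30d -P leaves (-2.81 ± 0.315 SE, adjusted p = 0.00659, called in all 12 fits). RWA4 (Ebr03G031660), which acetylates xylan and other wall polymers, had 67.1, 31.4 and 26.6 CPM against 418, 307 and 188 CPM (-2.87, adjusted p = 0.0189). Lower calls in the wall and traffic classes numbered 0 and 1 without replicate B of 90d -P, 2 and 1 without its replicate C, 3 and 1 without replicate A of 30d -P and 1 and 1 without its replicate B. They numbered 39 and 20 without replicate A of 90d -P and 49 and 32 without replicate C of 30d -P.

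Water channels were lower in part. Of 24 tested aquaporins (53 listed) 3 were lower (12.5%) and none higher, and the class median was -1.0. NIP61 (Ebr02G070210), a boric acid channel of young shoots in Arabidopsis, had 2.49, 4.81 and 1.85 CPM in 90d -P leaves against 36.2, 23.9 and 12.3 CPM in 30d -P leaves (-2.98 ± 0.514 SE, adjusted p = 0.0187). PIP26 (Ebr0G014430), a plasma membrane aquaporin, had 85.4, 27.1 and 18.3 CPM against 358, 486 and 649 CPM (-3.51 ± 0.65 SE, adjusted p = 0.0215). The aquaporin sum was lower in every library, at 1680, 1520 and 1950 CPM in 90d -P leaves against 4360, 2840 and 2640 CPM in 30d -P leaves. No aquaporin was called without replicate A or B of 30d -P or replicate B or C of 90d -P.

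**Figure D3:**
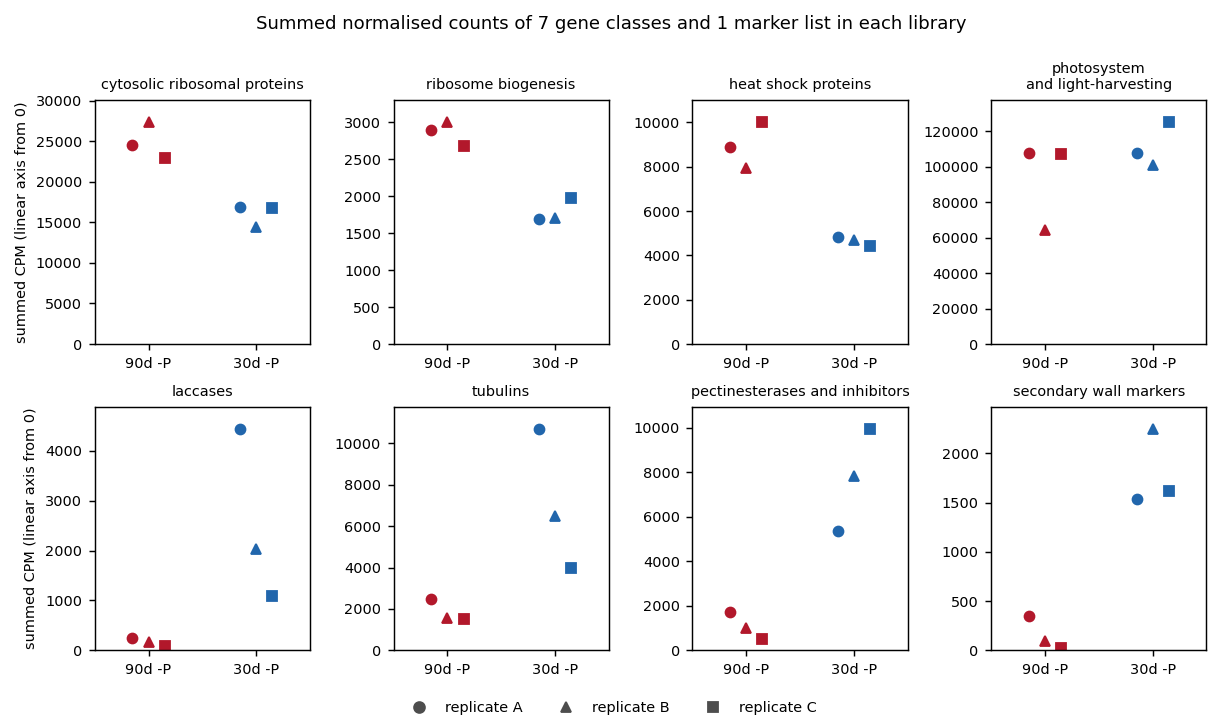
Summed CPM per library for 7 functional classes and for the markers of secondary wall vessels and fibres, with the 3 libraries of 90d -P on the left and of 30d -P on the right of each panel and axes that start at 0. Ribosomal proteins lie between 22900 and 27300 CPM in 90d -P leaves, above the 14400 to 16900 CPM of 30d -P leaves, and laccases, tubulins and the marker list lie lower in every 90d -P library.

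The study's table of RT-qPCR primers, which covers all its treatments, lists 15 genes of the count table apart from its miRNA targets. Of the 15, all tested here, 2 were lower and none higher by edgeR, SAU50 and ERF5. At an unadjusted p of at most 0.05, 3 were higher and 3 lower, and DESeq2 on the 6 libraries alone called 3 higher and 5 lower. The pairs below are those that the study lists for the auxin, ethylene, microtubule and phosphate genes that the next sentences describe. The values given there are read counts per gene, and where the primers lie in the genes was not tested. All letters are lower case because no part of a primer is singled out, and each reads 5′ to 3′.
SAU50 forward: gtttgatatgactggtgggaag
SAU50 reverse: ggatggggtatgagaagtaggt
ERF5 forward: cagcagtaatctccgaaca
ERF5 reverse: tgatgtatcagcaaggttgt
ICR2 forward: caagagcgtgatagagcat
ICR2 reverse: gcttctggatctcgttctt
PHT14 forward: ctggatgagtcaagaaggaa
PHT14 reverse: acaaggctacgatgaagag
SAU50 (Ebr0G010070, SAUR50), a small protein that auxin induces in expanding cells, had 0.0608, 0.243 and 0 CPM in 90d -P leaves against 70.8, 15.4 and 5.67 CPM in 30d -P leaves (-8.13 ± 1.62 SE, adjusted p = 0.0259). ERF5 (Ebr04G011530), an ethylene response factor, had 36.4, 42.2 and 51.6 CPM against 354, 290 and 93.8 CPM (-2.50 ± 0.528 SE, adjusted p = 0.0295). ICR2 (Ebr0G004400), a microtubule-associated effector of ROP GTPases, had 3.16, 1.22 and 0.493 CPM against 6.89, 30.5 and 11.9 CPM (-3.33 ± 0.758 SE, adjusted p = 0.0353). All 3 were lower in every 90d -P library, and PHT14 is described with the phosphate genes.

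ICR2 was 1 of 9 miRNA target genes that the study named for this comparison, and 4 of the 9 were lower by edgeR. Names here follow the deposited annotation of each gene ID, and for PIN3, RWA4 and METE2 the study's text pairs the names with these IDs in another way. The other called genes were PIN3 (Ebr01G032900), an auxin efflux carrier, with 44.4, 46.0 and 34.7 CPM in 90d -P leaves against 437, 183 and 79.6 CPM in 30d -P leaves (-2.48 ± 0.569 SE, adjusted p = 0.0356), RWA4 (above) and METE2 (Ebr02G028590). METE2, a methionine synthase, had 553, 532 and 388 CPM against 1300, 1540 and 1080 CPM (-1.41 ± 0.274 SE, adjusted p = 0.0245). DESeq2 on the 6 libraries alone called all 9 lower. CESA5 (Ebr05G035820), a primary wall cellulose synthase, had 786, 252 and 241 CPM against 1600, 1500 and 1650 CPM, and its libraries did not overlap although its adjusted p by edgeR was 0.0854. The MYB factors of this group, MYB08 (Ebr04G060880), MYB86 (Ebr03G055060), MYB61 (Ebr05G065230) and MYB3 (Ebr05G038410), missed the edgeR threshold (adjusted p between 0.0687 and 0.182) at log2 fold changes of -1.87, -1.68, -3.28 and -1.26.

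Auxin genes gave lower and higher calls. Of 16 tested Aux/IAA repressors (22 listed) 3 were lower (18.8%) and none higher. IAA16 (Ebr01G018500) had 199, 217 and 156 CPM in 90d -P leaves against 996, 680 and 379 CPM in 30d -P leaves (-1.84 ± 0.374 SE, adjusted p = 0.0265). IAA8 (Ebr03G069330) had 169, 191 and 110 CPM against 893, 462 and 343 CPM (-1.86 ± 0.395 SE, adjusted p = 0.0301). ARFE (Ebr05G026750, auxin response factor 5), which controls vein patterning, had 9.36, 10.1 and 10.6 CPM against 57.0, 42.4 and 27.3 CPM (-2.07 ± 0.368 SE, adjusted p = 0.0193). The influx carrier LAX2 (Ebr02G060550) had 129, 92.4 and 75.8 CPM against 342, 279 and 203 CPM (-1.47 ± 0.368 SE, adjusted p = 0.0438). Of 16 tested genes of auxin transport and GH3 enzymes (33 listed) 2 were lower (12.5%), PIN3 and LAX2, and 1 higher (6.25%). The higher one was PIN8, an assembled gene named after an efflux carrier, with 10.9, 7.55 and 8.33 CPM against 4.88, 4.38 and 4.02 CPM (1.01 ± 0.263 SE, adjusted p = 0.0478). Of 19 tested auxin response factors (22 listed) 2 were lower (10.5%) and 1 higher (5.26%), and of 23 tested SAUR genes (83 listed) SAU50 alone was called (4.35% lower), near the background of 3.95%. The Aux/IAA class held no lower call without replicate A or B of 30d -P or replicate B or C of 90d -P.

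Of 16 tested gibberellin genes (41 listed) 3 were lower (18.8%), and all 3 encode GASA peptides. A second GASA1 (Ebr04G063050, chromosome 4, 492656799 to 492657421) had 0.243, 1.03 and 0.37 CPM in 90d -P leaves against 50.0, 29.5 and 45.1 CPM in 30d -P leaves (-6.22 ± 0.576 SE, adjusted p = 0.00282, called in all 12 fits), and the 2 groups were far apart in every replicate. Cytokinin genes had 2 higher calls among 19 tested of 74 (10.5%) and no lower one. The class held 1 higher call without replicate C of 30d -P and none without any other -P library. ORR22 (Ebr02G069860), a type-B response regulator, had 45.8, 46.3 and 37.6 CPM against 16.7, 17.9 and 19.9 CPM (1.25 ± 0.295 SE, adjusted p = 0.0382), and the receptor kinase AHK2 (Ebr03G006220) had 24.1, 38.6 and 35.0 CPM against 7.61, 15.4 and 15.4 CPM (1.35 ± 0.309 SE, adjusted p = 0.0355).

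Stress hormones gave calls in both directions. Of 100 tested genes of abscisic acid synthesis and signalling (177 listed) 4 were higher (4.0%) and 5 lower (5.0%), beside 1.63% higher and 3.95% lower of all tested genes. ABAH2 (Ebr04G000950, CYP707A2), which breaks down abscisic acid, had 11.2, 22.6 and 7.77 CPM in 90d -P leaves against 88.4, 132 and 57.0 CPM in 30d -P leaves (-2.74 ± 0.436 SE, adjusted p = 0.0165). Of 33 tested genes of ethylene synthesis and receptors (72 listed) 1 was higher (3.03%) and 1 lower (3.03%). ACCO (Ebr0G018740), the last enzyme of ethylene synthesis, had 1950, 2130 and 2220 CPM against 661, 737 and 830 CPM (1.5 ± 0.265 SE, adjusted p = 0.019). Of 42 tested genes of jasmonate synthesis and TIFY repressors (105 listed) 2 were higher (4.76%) and 1 lower (2.38%), with a median of -0.37. LOX6 (Ebr03G067010), a plastid lipoxygenase at the start of jasmonate synthesis, had 61.4, 78.8 and 39.8 CPM against 19.2, 23.3 and 11.8 CPM (1.73 ± 0.347 SE, adjusted p = 0.0261).

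Signalling genes at the cell surface were called in both directions beyond the background. Of 503 tested receptor-like kinases (776 listed) 27 were higher (5.37%) and 35 lower (6.96%), with a median of 0.01. LRL27 (Ebr01G009780) had 52.1, 69.7 and 63.5 CPM in 90d -P leaves against 12.8, 15.2 and 23.8 CPM in 30d -P leaves (1.84 ± 0.233 SE, adjusted p = 0.00878, called in all 12 fits). Y2027 (Ebr01G069230), an inactive kinase, had 60.5, 53.0 and 45.6 CPM against 177, 221 and 147 CPM (-1.77 ± 0.205 SE, adjusted p = 0.00695, called in all 12 fits). GHR1 (Ebr06G035060), which acts in stomatal closure, had 3.22, 1.83 and 3.82 CPM against 28.4, 18.9 and 13.8 CPM (-2.78 ± 0.415 SE, adjusted p = 0.0135). Guard cell markers, 25 genes, summed to 232, 157 and 120 CPM against 283, 229 and 248 CPM, none of the 17 tested was called, and their part in the change of GHR1 was not tested. The class held 3 higher and 2 lower calls without replicate B of 90d -P.

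Of 82 tested calcium sensors and calcium-dependent kinases (122 listed) 11 were lower (13.4%) and 2 higher (2.44%). CML30 (Ebr05G031490), a calmodulin-like protein, had 3.4, 2.92 and 5.06 CPM in 90d -P leaves against 16.8, 29.4 and 24.7 CPM in 30d -P leaves (-2.64 ± 0.372 SE, adjusted p = 0.0129). CML50 (Ebr06G030490) was higher, with 79.0, 117 and 72.2 CPM against 35.8, 27.8 and 30.9 CPM (1.5 ± 0.224 SE, adjusted p = 0.0135). The calcium class held no lower call without replicate B of either group, 2 without replicate A of 30d -P or C of 90d -P, 5 without replicate A of 90d -P and 12 without replicate C of 30d -P. The larger defence families gave few calls, with 2 of 277 tested NBS-LRR resistance genes lower (0.722%), below the background. Of 94 tested chitinases, glucanases and pathogenesis-related proteins (265 listed), which attack or respond to microbes, 4 were lower (4.26%) and 1 higher (1.06%). Their sum was lower in every library, at 3080, 2070 and 1730 CPM in 90d -P leaves against 4420, 5300 and 5040 CPM in 30d -P leaves, and without replicate B of either group none was called lower. DEF1 (Ebr06G001270), a defensin, was higher, with 155, 153 and 80.4 CPM against 6.46, 6.6 and 3.19 CPM (4.58 ± 0.661 SE, adjusted p = 0.0129).

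Genes of protein synthesis and folding were higher in part. Of 295 tested cytosolic ribosomal proteins (575 listed) 24 were higher (8.14%) and none lower, 264 had a log2 fold change above 0, and the class median was 0.52 against 0.03 over all genes. RL72 (Ebr01G005210, chromosome 1, 42013278 to 42020280), of the large subunit, had 289, 283 and 244 CPM in 90d -P leaves against 101, 84.1 and 98.2 CPM in 30d -P leaves (1.53 ± 0.224 SE, adjusted p = 0.0129). R27A3 (Ebr03G054690) had 70.0, 80.8 and 79.4 CPM against 38.8, 36.5 and 39.7 CPM (1.00 ± 0.137 SE, adjusted p = 0.0128). The changes of single genes were moderate, but the summed class was higher in every library, at 24500, 27300 and 22900 CPM in 90d -P leaves against 16900, 14400 and 16800 CPM in 30d -P leaves. Without replicate B of either group no ribosomal protein passed, and without replicate A of 30d -P 2 did, while the class median stayed between 0.43 and 0.59.

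Ribosome biogenesis, the making of these particles in the nucleolus, had 11 higher (15.7%) and no lower calls among 70 tested of 122. CBF5 (Ebr01G058770), the pseudouridine synthase of ribosomal RNA, had 18.1, 24.8 and 24.7 CPM in 90d -P leaves against 6.24, 7.26 and 7.59 CPM in 30d -P leaves (1.68 ± 0.265 SE, adjusted p = 0.0163). FBRL1 (Ebr05G062740), fibrillarin, had 39.4, 42.2 and 31.3 CPM against 12.6, 15.7 and 20.5 CPM (1.21 ± 0.224 SE, adjusted p = 0.0214). NSA2 (Ebr01G043780) had 213, 283 and 166 CPM against 77.8, 85.4 and 96.8 CPM (1.35 ± 0.254 SE, adjusted p = 0.0225). The class sum did not overlap, at 2900, 3000 and 2680 CPM in 90d -P leaves against 1690, 1710 and 1980 CPM in 30d -P leaves. Calls numbered 0 without replicate A or B of 30d -P or replicate B of 90d -P, and 4 to 9 without 1 of the other -P libraries.

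Of 97 tested heat shock proteins (203 listed) 8 were higher (8.25%) and 1 lower (1.03%). HS701 (Ebr06G002950), a cytosolic HSP70 chaperone, had 1980, 2460 and 2150 CPM in 90d -P leaves against 1000, 894 and 737 CPM in 30d -P leaves (1.32 ± 0.24 SE, adjusted p = 0.0203). HSP80 (Ebr06G059700), of the HSP90 family, had 592, 541 and 550 CPM against 304, 261 and 232 CPM (1.08 ± 0.166 SE, adjusted p = 0.0159). The factor HFA6B (Ebr02G020930), a heat stress activator, had 24.7, 37.1 and 23.3 CPM against 3.8, 3.46 and 4.27 CPM (2.88 ± 0.534 SE, adjusted p = 0.0217). Of 44 tested glutathione S-transferases (100 listed) 3 were higher (6.82%), among them GSTX4 (Ebr05G023620), with 21.4, 27.8 and 49.2 CPM against 0.144, 0.85 and 3.06 CPM (4.58 ± 0.813 SE, adjusted p = 0.0193). Neither of these classes held a call without replicate B of 30d -P or of 90d -P.

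Flavonoid synthesis, the route to the icariin glycosides, held 4 higher (6.56%) and 1 lower (1.64%) of 61 tested genes (155 listed), and its median was -0.33. A chalcone synthase, CHSY (Ebr03G073780, chromosome 3, 609507616 to 609509065), had 43.8, 107 and 101 CPM in 90d -P leaves against 4.31, 4.84 and 5.29 CPM in 30d -P leaves (4.13 ± 0.373 SE, adjusted p = 0.00282, called in all 12 fits). F3PH (Ebr03G048300), flavonoid 3′-hydroxylase, had 81.7, 109 and 46.9 CPM against 0.359, 1.44 and 1.91 CPM (5.98 ± 0.871 SE, adjusted p = 0.0129). CHIL1 (Ebr03G053680), a chalcone isomerase-like helper of chalcone synthase, had 795, 827 and 448 CPM against 77.5, 75 and 141 CPM (2.82 ± 0.453 SE, adjusted p = 0.0167). C93B2 (Ebr05G032980), named after flavone synthase II, had 16.2, 80.3 and 78.4 CPM against 0, 0.196 and 1.02 CPM (7.11 ± 1.23 SE, adjusted p = 0.0187).

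Abundant copies in the study's primer table did not pass the edgeR test. The chalcone synthase listed there as EpCHS2 (Ebr05G049130) had 904, 35.8 and 840 CPM in 90d -P leaves against 1400, 1480 and 1130 CPM in 30d -P leaves. The flavanone 3-hydroxylase EpF3H (Ebr04G062950) had 1060, 167 and 948 CPM against 1100, 1170 and 888 CPM, and EpCHS1 (Ebr01G026640) had 3030, 1340 and 1430 CPM against 2590, 2590 and 2610 CPM. Replicate B of 90d -P was the lowest for all 3. The class sum overlapped between the groups, at 9330, 4110 and 7440 CPM in 90d -P leaves against 10800, 9970 and 9020 CPM in 30d -P leaves.

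Phenylpropanoid genes upstream of lignin and flavonoids had 3 higher (3.45%) and 5 lower (5.75%) of 87 tested (154 listed), so that homologs of 1 enzyme were found on both sides. In contrast to the COMT1 pair above, 2 other COMT1 genes were lower: Ebr05G058910 had 0.0608, 1.95 and 0 CPM in 90d -P leaves against 10.6, 111 and 165 CPM in 30d -P leaves (-7.14 ± 1.5 SE, adjusted p = 0.0293), and its near neighbour Ebr05G058940 had 0, 0.0609 and 0 CPM against 1.65, 15.2 and 22.3 CPM. CSE (caffeoylshikimate esterase) was split the same way, lower for Ebr02G063240 with 6.62, 7.3 and 5.55 CPM against 28.1, 74.0 and 50.0 CPM (-2.96 ± 0.498 SE, adjusted p = 0.0177) and higher for Ebr01G054420 by 1.34 ± 0.291 SE (adjusted p = 0.0319). How reads that match several such copies were counted is not given in the sources used here, so values of single members of multigene families are less certain than those of the class.

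**Figure D4:**
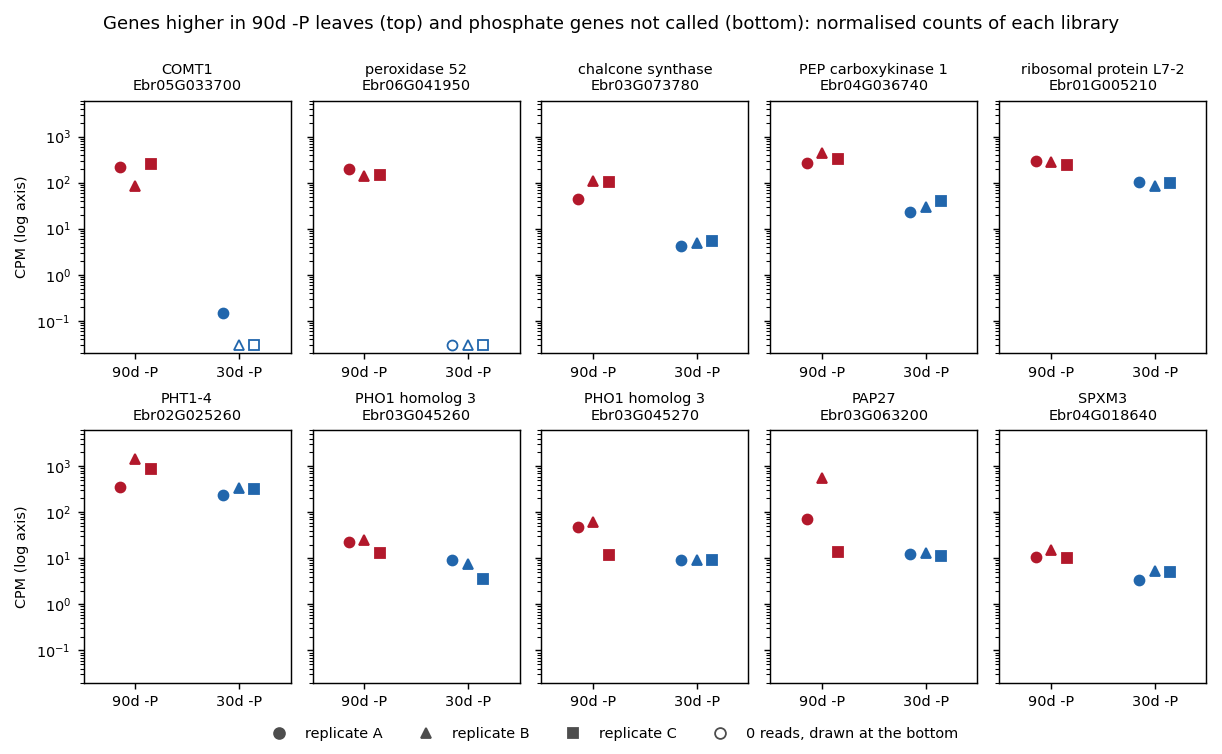
Level of 5 higher genes (upper row) and of 5 phosphate genes that did not pass the edgeR test (lower row). Each panel shows the 3 libraries of 90d -P (left) and of 30d -P leaves (right), in CPM on a logarithmic axis. Open symbols at the bottom stand for no read, PCKA1 is described with the additional observations, where it was chosen after its values were seen, and the 90d -P points of PAP27 spread from 13.6 to 548 CPM.

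Carbon metabolism and light signalling gave single changes. GLGL1 (Ebr04G029750), the large subunit of the enzyme that commits glucose to starch, had 308, 262 and 75.6 CPM in 90d -P leaves against 51.2, 58.0 and 27.4 CPM in 30d -P leaves (2.24 ± 0.522 SE, adjusted p = 0.0368). SSG1 (Ebr04G020730), the amylose synthase, had 292, 700 and 557 CPM against 72.5, 211 and 143 CPM (1.86 ± 0.451 SE, adjusted p = 0.0402). BAM3 (Ebr04G008860), a starch-degrading beta-amylase, was lower, with 13.8, 8.34 and 17.9 CPM against 72.4, 93.6 and 126 CPM (-2.86 ± 0.749 SE, adjusted p = 0.0486). Of 39 tested starch genes 2 were thus higher (5.13%) and 1 lower (2.56%). Sucrose synthase (SUS, Ebr05G014040), which supplies UDP-glucose to cellulose in growing organs, had 929, 456 and 169 CPM against 4500, 3960 and 3260 CPM (-2.92 ± 0.70 SE, adjusted p = 0.0394). Of 36 tested clock and photoreceptor genes 3 were higher (8.33%). They were APRR5 (Ebr05G066840) and 2 neighbouring copies of phytochrome A, of which PHYA (Ebr02G000460) had 43.2, 34.0 and 21.2 CPM against 9.4, 8.63 and 14.7 CPM (1.59 ± 0.342 SE, adjusted p = 0.0314).

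Photosynthesis and senescence genes gave almost no call by edgeR. None of 93 tested photosystem and light-harvesting genes passed in either direction (median -0.24), and their sum was 108000, 64300 and 107000 CPM in 90d -P leaves against 108000, 101000 and 125000 CPM in 30d -P leaves. At an unadjusted p of at most 0.05, 2 of the 93 were higher and none lower, and DESeq2 on the 6 libraries alone called 1 higher and 2 lower. None of 11 tested genes of chlorophyll breakdown, 23 of autophagy and 20 of cysteine and vacuolar proteases passed by edgeR. At the unadjusted p, 2 breakdown genes and 1 protease were higher, 1 breakdown gene and 3 proteases lower and no autophagy gene in either direction. DESeq2 on the 6 libraries alone called 1 breakdown gene higher, 2 breakdown genes and 3 proteases lower and no autophagy gene. Of 17 tested Calvin cycle genes 1 was higher (5.88%), RUBA (Ebr01G059160), a chaperone that assembles RuBisCO, by 1.18 ± 0.22 SE (adjusted p = 0.0215).

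Phosphate genes were examined because both groups lacked phosphorus. No PHO1 exporter, PHT1 transporter, SPX protein or purple acid phosphatase passed the edgeR test. Every 90d -P library lay above every 30d -P library for 4 of 12 tested PHO1 genes (33.3%) and the 1 tested PHT1 gene. The same held for 1 of 6 SPX proteins (16.7%) and 2 of 31 acid phosphatases (6.45%), beside 15.3% of all tested genes. Another 3 acid phosphatases (9.68%) lay apart in the lower direction, beside 18.0% of all tested genes. At an unadjusted p of at most 0.05, 5 PHO1 genes, 1 PHT1 gene, 1 SPX protein and 1 acid phosphatase were higher, and 1 PHO1 gene and 2 acid phosphatases lower. The class medians were 1.31 over 12 tested PHO1 genes (23 listed), 0.78 over 6 tested SPX proteins (13 listed) and 0.12 over 31 tested acid phosphatases (55 listed). The PHO1 and SPX medians depended on the libraries used. Without replicate B of 90d -P the median was 0.14 for PHO1 genes and 0.03 for SPX proteins. Without any other of the 6 libraries it ran between 1.149 and 1.475 for PHO1 genes and between 0.34 and 1.201 for SPX proteins. These fits tested 12 or 13 PHO1 genes and 7 SPX proteins. PHT14 (Ebr02G025260, PHT1-4, chromosome 2, 217843112 to 217845493), the only PHT1 gene of 14 with enough counts, had 359, 1410 and 879 CPM in 90d -P leaves against 240, 340 and 325 CPM in 30d -P leaves (1.55 ± 0.54 SE, adjusted p = 0.109). DESeq2 on the 6 libraries alone gave it an adjusted p of 0.0192, and called 2 PHT1 genes higher and none lower.

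PHO1-3 genes were of the same form. Ebr03G045260 had 23.2, 25.5 and 12.8 CPM in 90d -P leaves against 9.26, 7.39 and 3.63 CPM in 30d -P leaves (1.60 ± 0.482 SE, adjusted p = 0.0727), and its neighbour Ebr03G045270 had 47.8, 61.7 and 11.8 CPM against 9.04, 9.15 and 9.31 CPM (2.14, adjusted p = 0.13). A further copy, Ebr03G045300, overlapped between the groups, at 182, 174 and 235 CPM against 213, 200 and 252 CPM. PAP27 (Ebr03G063200, a purple acid phosphatase) had 72.1, 548 and 13.6 CPM against 12.7, 12.8 and 11.3 CPM (4.10 ± 1.51 SE, adjusted p = 0.125), a difference carried by replicate B. SPXM3 (Ebr04G018640) had 10.9, 15.5 and 10.4 CPM against 3.37, 5.23 and 5.1 CPM (1.42, adjusted p = 0.149). DESeq2 on the 6 libraries alone called 5 of the study's 17 annotated PHO1 homologs higher and 1 lower, where edgeR called none. It also called 1 of 17 genes annotated as PAP27 and 1 of 3 annotated as SPXM3 higher, and none of these lower. Among all purple acid phosphatases it called 1 higher and 2 lower.

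Of 82 tested nitrate transporters (151 listed) 2 were higher (2.44%) and 2 lower (2.44%), beside 1.63% higher and 3.95% lower of all tested genes. PTR21 (Ebr03G061490, NPF2.13), which moves nitrate out of old leaves in Arabidopsis, had 88.7, 77.1 and 138 CPM in 90d -P leaves against 17.8, 36.5 and 35.3 CPM in 30d -P leaves (1.76 ± 0.394 SE, adjusted p = 0.0339). A neighbour of the same name (Ebr03G061510) was lower, with 33.2, 21.1 and 43 CPM against 125, 129 and 60.1 CPM (-1.69 ± 0.366 SE, adjusted p = 0.0318). NRT27 (Ebr03G055670, NRT2.7), a vacuolar nitrate transporter, had 61.7, 82.7 and 48.8 CPM against 19.9, 21 and 14.1 CPM (1.81 ± 0.464 SE, adjusted p = 0.0466). The second lower gene was PTR12 (Ebr01G016020, NPF4.5), with 28.1, 17.9 and 16 CPM against 248, 102 and 37.4 CPM (-2.64 ± 0.688 SE, adjusted p = 0.0481). Genes annotated as NRT2.4 or NPF3.1, both named by the study for this comparison, numbered 15, and none of the 7 tested passed by edgeR. At an unadjusted p of at most 0.05, 1 of the 7 was higher and 4 lower, and DESeq2 on the 6 libraries alone called 1 higher and 5 lower of the 15. NRT24 (Ebr01G059000, NRT2.4) had no read in 90d -P leaves against 7.82, 1.11 and 0 CPM in 30d -P leaves and was too low for the edgeR test. Copies of PTR18 (NPF3.1) differed in direction: Ebr02G041120 had 8.57, 4.44 and 14.7 CPM against 44.9, 19.7 and 18.1 CPM (-1.57 ± 0.624 SE, adjusted p = 0.149), and Ebr0G011500 had 72.2, 43.5 and 101 CPM against 26.3, 33.2 and 37.3 CPM (1.16 ± 0.424 SE, adjusted p = 0.123). No nitrate transporter was called without replicate A or B of 30d -P or replicate B or C of 90d -P. PLDA1 (Ebr02G060680), a phospholipase D, was the 1 lower gene of 34 tested in membrane lipid remodelling (2.94%).

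Transcription factors were called at about the background rate, 22 higher (1.63%) and 39 lower (2.89%) of 1349 tested. MYB06 (Ebr05G059870, named after Myb-related protein 306) had 128, 144 and 88.0 CPM in 90d -P leaves against 27.3, 38.3 and 35.9 CPM in 30d -P leaves (1.83 ± 0.222 SE, adjusted p = 0.00742, called in all 12 fits). MYB61 (Ebr01G015900), a regulator of xylem and secondary walls, had 28.3, 15.2 and 10.3 CPM against 142, 93.0 and 103 CPM (-2.65 ± 0.511 SE, adjusted p = 0.0245). NAC7 (Ebr05G055120), a vessel switch of the marker list, had 0.182, 0.183 and 0 CPM against 1.58, 3.99 and 3.51 CPM (-4.55 ± 0.938 SE, adjusted p = 0.0275). The sieve element factor NAC45 (Ebr03G037990) had 0, 0.0609 and 0 CPM against 3.44, 2.22 and 0.574 CPM (-6.21 ± 1.54 SE, adjusted p = 0.0429). Both NAC calls were thus lower genes of vascular cell types, at low levels.

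WRKY factors had 3 higher (8.82%) and no lower calls among 34 tested. WRKY6 (Ebr02G001810), which acts in senescence and phosphate signalling in Arabidopsis, had 18.4, 26.9 and 17.3 CPM in 90d -P leaves against 0.502, 1.9 and 4.08 CPM in 30d -P leaves (3.26 ± 0.657 SE, adjusted p = 0.0261). WRK75 (Ebr03G069460), a regulator of phosphate starvation responses in Arabidopsis, had 3.4, 28.1 and 12.6 CPM against 0.0718, 0.327 and 0.446 CPM (5.65 ± 1.20 SE, adjusted p = 0.0299). Of 52 tested C2H2 factors 4 were lower (7.69%) and none higher. ERF factors were called 2 up (3.17%) and 3 down (4.76%) of 63, and ERF23 (Ebr05G061520) had 11.2, 5.66 and 2.47 CPM against 45.1, 92.1 and 126 CPM (-3.77 ± 0.871 SE, adjusted p = 0.036). Leaving out replicate B of 90d -P left 1 transcription factor higher and none lower.

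The last comparison asked whether the change between 30 and 90 days differed with phosphorus. In +P leaves 734 genes (3.02%) were called at 90 against 30 days, 205 higher (0.843%) and 529 lower (2.18%). Of the 396 higher genes without phosphorus 126 (31.8%) were also called with it, which is 61.5% of the +P list, and of the 960 lower genes 397 (41.4%) were, which is 75% of the +P list. No gene was called in opposite directions. The 2 comparisons share no library but share 1 estimate of the spread. The genes called in -P had the same sign in +P for 391 of 396 higher and 948 of 960 lower genes, with median log2 fold changes of 1.68 in -P and 1.21 in +P for the higher genes and of -2.30 in -P and -1.74 in +P for the lower genes. Because the genes were selected on -P, larger values there do not show that the changes were larger without phosphorus.

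The difference of the 2 time effects, tested in the same fit, passed for no gene (0.0%), and no adjusted p was under 1.0. Without adjustment, 613 genes (2.52%) had a p of at most 0.05 and met the fold change minimum, and DESeq2 on the 12 libraries called 34. No gene's change over time was therefore shown to depend on phosphorus by edgeR. PHT14 illustrates the width of the spread, with 303, 98.2 and 420 CPM in 90d +P leaves against 339, 277 and 284 CPM in 30d +P leaves beside the higher -P values above, and PHO1 genes had a median of 1.31 in -P, or 0.14 without replicate B of 90d -P, beside -0.32 in +P. CHSY was on the same course with phosphorus, at 74.6, 81.6 and 123 CPM in 90d +P leaves against 1.05, 1.35 and 1.74 CPM in 30d +P leaves, as were XTH33, with 0.728, 0.483 and 0.864 CPM against 21.9, 261 and 189 CPM, and RL72, with 373, 372 and 272 CPM against 203, 119 and 144 CPM. CSLD2, by contrast, had 13.5, 16.2 and 22.6 CPM in 90d +P leaves against 16.4, 18.4 and 21.7 CPM in 30d +P leaves, and its difference from the -P change did not pass either.

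**Figure D5:**
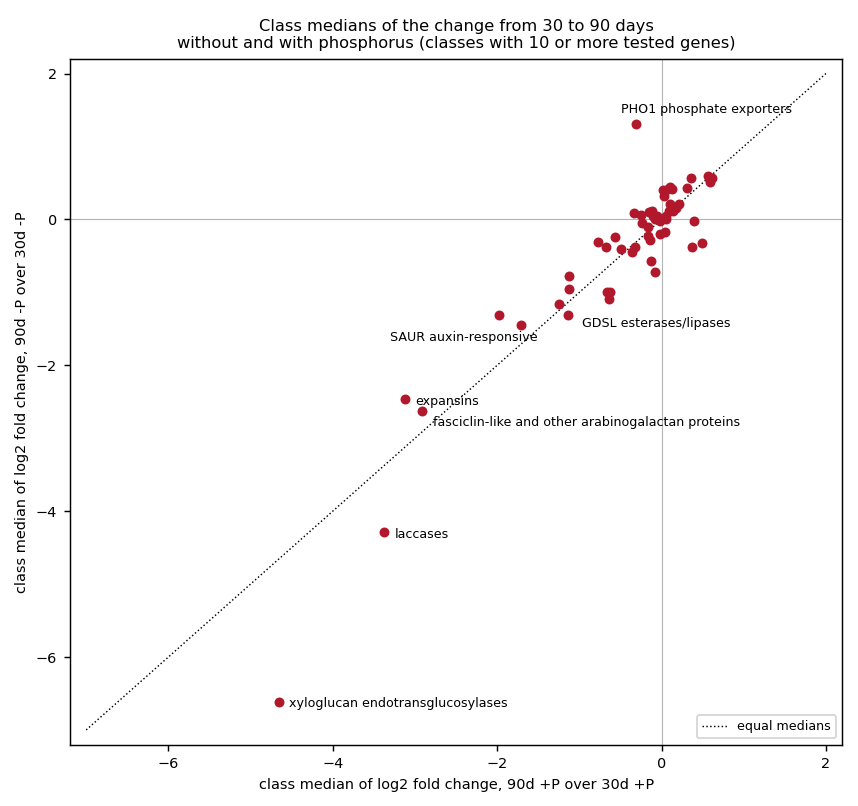
Median log2 fold change of each functional class between 90 and 30 days with phosphorus (horizontal axis) and without it (vertical axis), each point a class with at least 10 tested genes and the diagonal marking equal values. Xyloglucan endotransglucosylases lie lowest on the vertical axis at -6.61, with -4.66 in +P, and PHO1 exporters lie at 1.31 in -P (0.14 without replicate B of 90d -P) and -0.32 in +P. By edgeR no single gene passed the test of the difference between the 2 time effects, and DESeq2 on the 12 libraries called 34.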

How the data were processed

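RNA-seq libraries were made from leaves of 12 E. pubescens samples, 3 per group. Per the submitters' processing notes and the paper's methods, the authors aligned reads with HISAT2 2.0.5, assembled further genes with StringTie 1.3.3b and counted reads per gene with featureCounts 1.5.0-p3. The deposited table holds raw counts and, per the file headers, FPKM of each library beside gene positions, Swiss-Prot names and transcription factor families. The assembly's name, strand setting and treatment of reads matching several genes are not given in the sources used here. Counts were tested as deposited with edgeR 4.0.16 in R 4.3.3 (trimmed mean of M values, filterByExpr, robust quasi-likelihood fit, 1 mean per group over 12 libraries, Benjamini-Hochberg adjustment over 24307 genes). The residual degrees of freedom were 8 and the common biological coefficient of variation was 0.5997. SE is the log2 fold change divided by the root of F. FPKM values served only to check the library sizes. DESeq2 1.42.0 (which the study used in another version) and limma 3.58.1 were alternatives, as were RLE normalization, other filters, a replicate block and each library left out. The fits of edgeR, DESeq2 and limma were tested on simulated counts.

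Replicates of a group are called biological in the study's methods. Depth over the 12 libraries ran between 14756971 and 18153463 counts on genes, and counts without molecular identifiers limit the precision of low genes most. Genes at no read in a group were given a floor of 3 counts per library. Functional classes were read from protein names. In each class the genes named were the called ones with the smallest p, up to 3 higher and 3 lower, provided that the libraries did not overlap and that either group averaged 1 CPM or more. To these came the 6 highest and 6 lowest log2 fold changes among genes averaging 5 CPM or more, and the genes named by the study for this comparison. Members and lists were chosen with earlier results of these data known. No column of fold changes or of another series was used. A gene that this rule names is not reported here.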

Additional observations from a re-analysis of the deposited data

How the results depend on the processing

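By edgeR on 12 libraries 396 genes were higher, 960 lower and 0 different in their change between phosphorus levels. DESeq2 on the 12 libraries called 1076 higher, 2148 lower and 34 different, and on the 6 -P libraries alone 996 and 2229, which included 389 of the 396 and 959 of the 960 genes. edgeR on the 6 libraries alone called 91 and 223. limma-voom with quality weights called 821 higher, 1341 lower and 0 different, and without a filter on low counts 251 were higher and 664 lower. At an unadjusted p of at most 0.05 the counts were 1453, 2559 and 613. Leaving out 1 library gave between 15 and 459 higher, between 35 and 1143 lower and 0 different genes. With RLE normalization (416 and 967), a CPM filter (423 and 1005) or no fold change minimum (529 and 1097) the counts stayed within 1.5 times. With the letters A, B and C as a replicate block 42 genes were higher, 79 lower and 0 different. The sources used here do not say whether a letter joins libraries of different groups. Deviations of same-lettered libraries of 90d -P and 30d -P correlated at 0.176 (A), -0.004 (B) and 0.212 (C), and not every library correlated best with its own letter. With 3 letters these values cannot decide whether the libraries were paired. The median of all genes moved between -0.05 and 0.07 over these alternatives. The biological coefficient of variation of 0.5997 limits what 3 against 3 libraries can call. In simulated counts with 200 changed genes, edgeR on 12 libraries recovered 35 of 100 4-fold and 60 of 100 16-fold changes, with 2 false calls. DESeq2 recovered 64 and 82 of them, with 67 false calls on 12 libraries and 137 on 6. In the simulation each gene was drawn independently and 200 of 24307 were changed. The deposited counts gave more calls and had replicates that deviated over many genes together, so these rates need not hold for them. Why the tools differ on the deposited counts was not tested.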

Other observations

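A few small families were picked out after their values had been seen, so their counts describe these genes and test nothing. Of 5 tested phosphoenolpyruvate carboxykinases (13 listed), which send oxaloacetate toward sugars or nitrogen-rich amino acids, 3 were higher by edgeR and none lower. PCKA1 (Ebr04G036740, chromosome 4, 292548702 to 292567012) had 273, 435 and 319 CPM in 90d -P leaves against 23.0, 29.2 and 40.7 CPM in 30d -P leaves (log2 fold change 3.47 ± 0.321 SE, adjusted p = 0.00282, called in each fit with 1 library left out). It was 390, 655 and 347 CPM in 90d +P leaves against 62.2, 55.1 and 56.3 CPM in 30d +P leaves, so it was higher at 90 days with phosphorus as well. PCKA2 (Ebr03G070440) had 9.3, 18.6 and 8.45 CPM in 90d -P leaves against 1.29, 1.31 and 1.28 CPM in 30d -P leaves (3.22 ± 0.47 SE, adjusted p = 0.0129). With 1 -P library left out, between 1 and 3 of these genes were called.

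Prenyltransferases attach isoprenoid tails to aromatic rings, as in vitamin E, plastoquinone and the prenylated flavonols of Epimedium. Of 12 tested (18 listed) 6 were higher and none lower. N8DT1 (Ebr02G069620), named after a naringenin prenyltransferase of Sophora, had 59.3, 81.0 and 35.5 CPM in 90d -P leaves against 5.96, 6.01 and 4.46 CPM in 30d -P leaves (3.42 ± 0.513 SE, adjusted p = 0.0144). It lies inside an assembled gene of the same name on the same strand, so its reads are uncertain. A second HPT1, an assembled gene, had 215, 132 and 56.7 CPM against 0, 0.458 and 0 CPM (9.69 ± 1.59 SE, adjusted p = 0.0172). No prenyltransferase was called without replicate B of 30d -P or of 90d -P.

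Glycerol-3-phosphate dehydrogenases, which supply the backbone of membrane lipids, were lower for 5 of 7 tested (7 listed). GPDA (Ebr02G051530) had 8.27, 3.96 and 3.64 CPM in 90d -P leaves against 46.0, 66.1 and 38.2 CPM in 30d -P leaves (-3.24 ± 0.487 SE, adjusted p = 0.0144). GPDH1 (Ebr01G031290) had 4.44, 1.95 and 2.28 CPM against 25, 14.1 and 15.3 CPM (-2.65 ± 0.376 SE, adjusted p = 0.0129). Without replicate B of 90d -P none was called, and without its replicate A 5 were.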
